A study of Mus musculus with 40 samples.

Results

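Reactive astrocyte genes were followed across the cortex of 40 mice. The set held 10 genes named as markers of astrocyte reactivity, which were Gfap, Vim, Serpina3n, Serpina3i, Cd44, Osmr, S1pr3, Cp, Fbln5 and Lcn2, and each matched 1 row by gene symbol among the 43346 genes of the count table. All 10 passed the filter on low counts and were among the 21253 genes tested. Each of 4 groups held 10 mice, of which 5 were female and 5 male. Mice of the amyloid cohort were hemizygous for the 5xFAD transgenes and 8.5 months old, and those of the non-amyloid cohort carried no such transgenes and were 6 months old. Each cohort held littermates that were wild type for Trem2 (WT) or homozygous for the Trem2 H157Y knock-in allele (Hom), which was made with CRISPR/Cas9 and, unless the study says otherwise, came from a single founder. The 5xFAD transgenes are driven by the Thy1 promoter, which is active mainly in neurons, and lead to amyloid deposits in the brain. Since the cohorts differed in transgenes and in age, a difference between amyloid and non-amyloid mice cannot be told apart from one of age.

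Astrocytes respond to injury, inflammation and amyloid plaques by a change of state called reactivity, in which the intermediate filaments GFAP and vimentin increase and secreted proteins, adhesion molecules and cytokine receptors are induced. Much of this response runs through cytokines of the interleukin-6 family, which bind receptors such as the oncostatin M receptor together with gp130 and activate the transcription factor STAT3. TREM2 is a receptor of microglia, so in the cortex it is not a product of the astrocytes themselves. The RNA came from whole cortex, and for every gene below a change in the number of cells cannot be told apart from a change in RNA per cell.

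Total counts per library ranged from 41646271 to 105903846, with a median of 77193387. A single library stood apart. In amyloid Hom replicate 19, a female, 569 genes that lie opposite a more highly expressed gene took 0.617% of the counts, and in the other 39 libraries they took 0.0144% to 0.0191%. Of the 10 members, only Cp shared exonic bases with a gene on the opposite strand (108 of 9566 bases, with Hps3). Summed markers of choroid plexus exceeded 100 CPM (read counts scaled to the size of the library, with TMM factors) in 9 libraries, of which 4 were amyloid Hom, 2 were amyloid WT, 2 were non-amyloid Hom and 1 was non-amyloid WT. The 12 homeostatic astrocyte markers, among them Aqp4 and Aldoc, were present in every group, with sums of 7069 ± 576 CPM in non-amyloid WT, 6998 ± 214 CPM in non-amyloid Hom, 7840 ± 454 CPM in amyloid WT and 7857 ± 646 CPM in amyloid Hom (SD, n = 10 each). Trem2 itself was at 62.2 ± 24.4 CPM in amyloid WT and 33.9 ± 10.3 CPM in amyloid Hom, and at 10.7 ± 2.13 and 10.4 ± 1.59 CPM in non-amyloid WT and Hom (SD, n = 10 each). A single amino acid change leaves the transcript in place, so the level of Trem2 does not check the genotype labels.

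On the mouse genome build mm10, Gfap lies at chr11:102887336-102900912, Vim at chr2:13573927-13582826, Cd44 at chr2:102811141-102901665 and Lcn2 at chr2:32384633-32388252. Cp lies at chr3:19957054-20009145, S1pr3 at chr13:51408618-51422797 and Osmr at chr15:6813577-6874969. The remaining members share chromosome 12, with Fbln5 at chr12:101746565-101819055, Serpina3i at chr12:104263122-104269372 and Serpina3n at chr12:104406729-104414329, the serpins being members of 1 gene cluster. The promoters were read for the STAT motif TTCNNNGAA and the AP-1 motif TGANTCA, both on either strand, because STAT3 and AP-1 are transcription factors of the reactive response. RefSeq promoter windows (GRCm38.p6, which is mm10), from 250 bases before to 50 bases after the start of transcription, were found for all 10 members and gave 12 windows. The STAT letters occurred in 2 of the 12 and in 8.30% of 32851 promoters of all genes, and the AP-1 letters in 2 of the 12 and in 7.81% of all. The 4 matches are shown 5′ to 3′ with 10 bases on each side and the motif in capitals. They are descriptions of sequence, not of binding.
Gfap STAT match, chr11:102897184-102897212, minus strand: atgggggtgcTTCCAGGAAgtcaggggca
Serpina3i STAT match, chr12:104263010-104263038, plus strand: taagtgcttgTTCCCAGAAatcacccagt
Osmr AP-1 match, chr15:6874294-6874320, minus strand: gccccgtagtTGATTCAtagctggggc
Cp AP-1 match, chr3:19956867-19956893, plus strand: atgacatattTGATTCAtttttccttg

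The members spanned a wide range of levels. Per kilobase of exons, Gfap had the highest mean in amyloid WT, at 195 CPM per kb, followed by Serpina3n at 51.8 and Vim at 10.1 CPM per kb. Cp and S1pr3 were next at 2.75 and 2.56 CPM per kb, then Cd44 at 1.39, Osmr at 1.37 and Fbln5 at 1.12 CPM per kb. Lcn2 and Serpina3i were the lowest, at 0.378 and 0.130 CPM per kb. Cd44 and Osmr did not differ beyond their spread between mice, which was 58.8% of the mean for Cd44 and 42.7% for Osmr, and neither did Cp and S1pr3, with spreads of 22.9% and 26.03%. In non-amyloid WT mice the order began in the same way, with Gfap at 21.8, Serpina3n at 6.71 and Vim at 5.49 CPM per kb, while Cd44 and Osmr stood below Fbln5, at 0.737, 0.418 and 1.098 CPM per kb.

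The first comparison asked how the members stood in amyloid mice beside non-amyloid mice of the same Trem2 genotype. In WT mice, 8 of the 10 members rose and none fell, where a gene was called at a Benjamini-Hochberg adjusted p under 0.05 over all genes tested by edgeR's quasi-likelihood test and an absolute log2 fold change over 0.25. Over all genes tested, 7.95% were called in either direction and 6.62% were called higher. The median log2 fold change was 1.31 over the members and 0.00 over all genes. In Hom mice, 5 of the 10 members rose and none fell, beside 6.56% of all genes called and 5.71% called higher, and the medians were 0.82 over the members and 0.03 over all genes. The WT and Hom contrasts share no library, but they were taken from 1 fit of all 40 libraries and share its estimate of the spread. Fitted on the 20 libraries of each genotype alone, 6 members were called in WT and 8 in Hom, beside 7.31% and 5.83% of all genes, so the order of these counts depends on the fit. In WT, Lcn2 and S1pr3 were then not called (edgeR adjusted p = 0.0856 and 0.0672), and in Hom, Vim, Cd44 and Lcn2 were called in addition (edgeR adjusted p = 0.0307, 0.00763 and 0.0445).

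**Figure D1:**
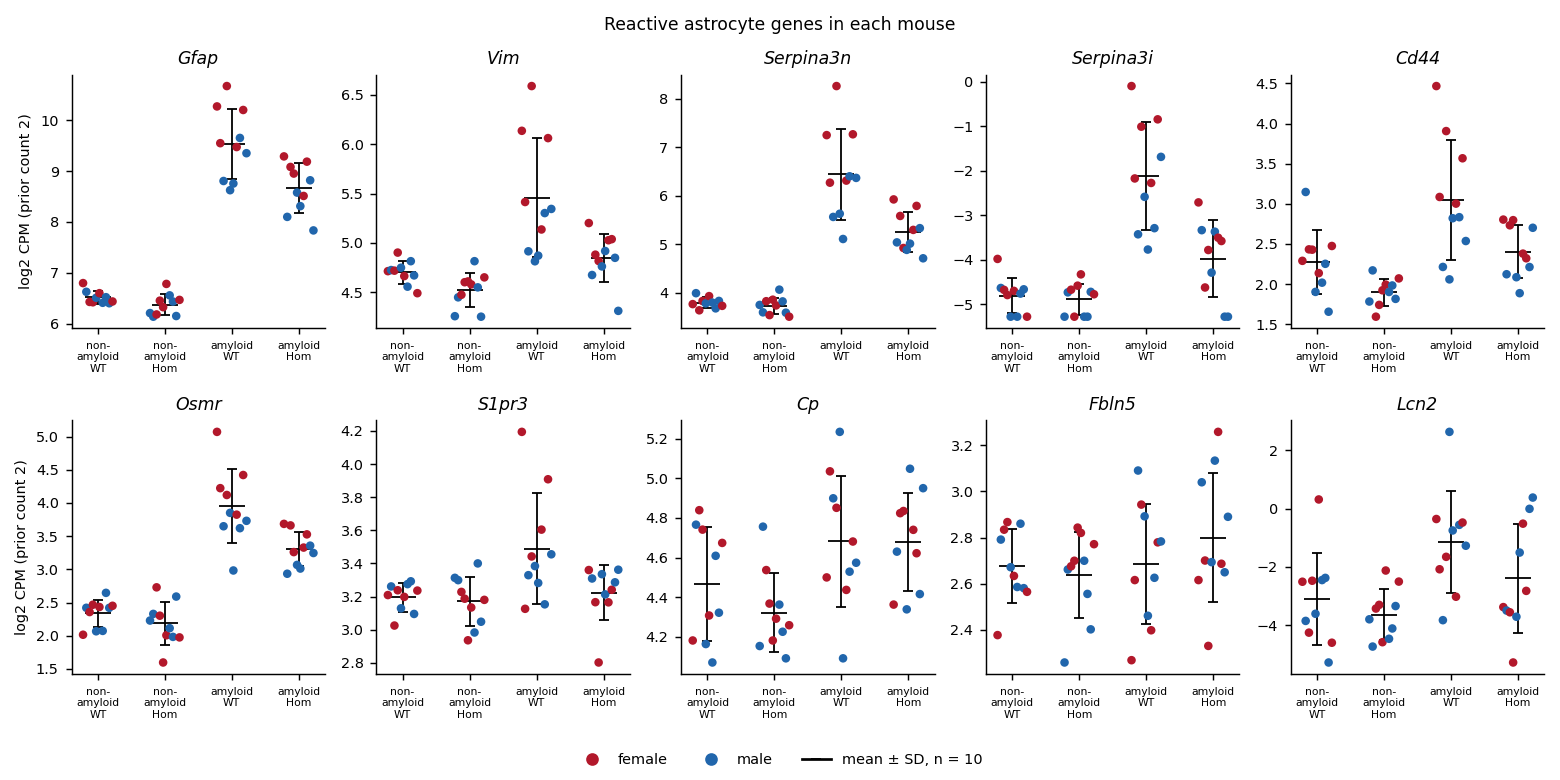
Each panel shows 1 gene with log2 CPM (prior count 2) on the vertical axis and the 4 groups on the horizontal axis; each point is a mouse, red for females and blue for males, and the black bars are the mean ± SD of 10 mice. All 10 amyloid WT mice stood above all 10 non-amyloid WT mice for Gfap, Serpina3n, Serpina3i and Osmr, as for 1.95% of all genes tested. These 2 groups overlapped for Vim, Cd44, S1pr3, Cp, Fbln5 and Lcn2.

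Gfap encodes glial fibrillary acidic protein, the main intermediate filament of astrocytes. In non-amyloid WT mice it ranged from 84.6 to 111 CPM with a median of 88.9 CPM, and in amyloid WT mice from 395 to 1627 CPM with a median of 729 CPM. In non-amyloid Hom mice it ranged from 70.5 to 110.1 CPM with a median of 83.4 CPM, and in amyloid Hom mice from 228 to 625.2 CPM with a median of 417 CPM. The cohorts did not overlap in either genotype, which 1.95% of all genes tested also showed in WT and 0.875% in Hom, amyloid mice being higher. Gfap rose with a log2 fold change of 3.16 ± 0.20 (SE, n = 10 and 10, edgeR adjusted p = 1.07e-15) in WT mice, which is 8.96-fold, and of 2.35 ± 0.19 (edgeR adjusted p = 9.16e-12) in Hom mice, which is 5.10-fold. Vim encodes vimentin, a filament protein that assembles with GFAP in reactive astrocytes and is also made by vascular and microglial cells. It ranged from 22.5 to 29.9 CPM with a median of 26.3 CPM in non-amyloid WT, from 28.1 to 96.2 CPM with a median of 40.0 CPM in amyloid WT, from 19.1 to 28.1 CPM with a median of 23.6 CPM in non-amyloid Hom and from 19.8 to 36.8 CPM with a median of 29.1 CPM in amyloid Hom. Of the 10 amyloid WT mice, 8 lay above every non-amyloid WT mouse, and of the 10 amyloid Hom mice, 7 lay above every non-amyloid Hom mouse. Vim rose in WT mice with a log2 fold change of 0.88 ± 0.15 (SE, edgeR adjusted p = 3.08e-05). In Hom mice the log2 fold change was 0.33 ± 0.15 and did not pass the test (edgeR adjusted p = 0.178), though it did in the fit of the 20 Hom libraries. None of 4 other filament genes, among them Synm, was called in either genotype.

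Serpina3n encodes a secreted serine protease inhibitor that reactive astrocytes release. It ranged from 12.4 to 15.8 CPM with a median of 13.7 CPM in non-amyloid WT and from 34.4 to 308 CPM with a median of 81.1 CPM in amyloid WT. In Hom mice it ranged from 11.3 to 16.6 CPM with a median of 13.3 CPM without amyloid and from 26.1 to 60.7 CPM with a median of 36 CPM with amyloid. As with Gfap, no amyloid mouse overlapped with the non-amyloid mice of its genotype. Serpina3n rose with a log2 fold change of 2.95 ± 0.25 (SE, edgeR adjusted p = 2.19e-12) in WT mice, which is 7.72-fold, and of 1.57 ± 0.24 (edgeR adjusted p = 7.81e-06) in Hom mice, which is 2.97-fold. Serpina3i, a neighbour in the same serpin cluster, was at the edge of detection. Its counts per library were 0 to 3 in non-amyloid WT, 0 to 2 in non-amyloid Hom, 3 to 84 in amyloid WT and 0 to 9 in amyloid Hom, with no count in 3, 4, 0 and 2 of the 10 libraries of these groups. Its medians were 0.0119 CPM in non-amyloid WT, 0.188 CPM in amyloid WT, 0.0113 CPM in non-amyloid Hom and 0.0524 CPM in amyloid Hom. All 10 amyloid WT mice exceeded all 10 non-amyloid WT mice, and 7 of 10 amyloid Hom mice exceeded all 10 non-amyloid Hom mice. Serpina3i rose with a log2 fold change of 4.46 (95% interval 3.28 to 5.64, edgeR adjusted p = 1.55e-07) in WT mice and of 2.29 (0.91 to 3.67, edgeR adjusted p = 0.0297) in Hom mice, and the sizes rest on these few counts. The Hom call was made in 37 of 40 fits that each left out a library, and was lost without the 9 libraries over 100 CPM of choroid plexus markers, at 2.19 (edgeR adjusted p = 0.12).

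The Serpina3 genes resemble each other. The longest transcript of Serpina3i is 87.7% identical to that of Serpina3f over 1984 aligned bases and 80.5% identical to that of Serpina3n over 1974 bases. Serpina3i held 243 counts in the 10 amyloid WT libraries together and Serpina3n held 87266, a ratio of 0.279%, and the ratio was 0.126% in amyloid Hom, 0.0853% in non-amyloid WT and 0.0650% in non-amyloid Hom. The part of reads shared between these genes in the Serpina3i values was not tested. Of the 9 other genes of the cluster, 5 passed the filter on low counts, and 4 of those 5 rose in amyloid WT mice: Serpina3m, Serpina3f, Serpina3g and Serpina3h, with log2 fold changes of 3.07, 2.61, 1.66 and 1.76. Their means stayed between 0.178 and 0.746 CPM in amyloid WT. In Hom mice, 2 of the 5 rose.

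The receptors among the members were Osmr, Cd44 and S1pr3. Osmr, the oncostatin M receptor, which signals with gp130 to STAT3, ranged from 4.02 to 6.23 CPM with a median of 5.33 CPM in non-amyloid WT and from 7.88 to 33.6 CPM with a median of 14.3 CPM in amyloid WT. In Hom mice it ranged from 3 to 6.60 CPM with a median of 4.48 CPM without amyloid and from 7.62 to 12.8 CPM with a median of 9.78 CPM with amyloid. Neither genotype showed any overlap between the cohorts. Osmr rose with a log2 fold change of 1.71 ± 0.16 (SE, edgeR adjusted p = 6.62e-11) in WT and of 1.11 ± 0.16 (edgeR adjusted p = 3.87e-06) in Hom mice. Cd44, the hyaluronan receptor, which is also made by infiltrating leukocytes, ranged from 3.13 to 8.84 CPM with a median of 4.80 CPM in non-amyloid WT, from 4.14 to 22.1 CPM with a median of 7.55 CPM in amyloid WT, from 2.99 to 4.48 CPM with a median of 3.74 CPM in non-amyloid Hom and from 3.67 to 6.96 CPM with a median of 5.08 CPM in amyloid Hom. The groups overlapped, with 3 amyloid WT mice above every non-amyloid WT mouse and 7 amyloid Hom mice above every non-amyloid Hom mouse. Cd44 rose in WT mice with a log2 fold change of 0.91 ± 0.21 (SE, edgeR adjusted p = 0.00162), and in Hom mice the value was 0.53 ± 0.21 (edgeR adjusted p = 0.111).

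S1pr3 encodes a receptor for sphingosine 1-phosphate. It ranged from 8.12 to 9.77 CPM with a median of 9.31 CPM in non-amyloid WT, from 8.71 to 18.3 CPM with a median of 10.6 CPM in amyloid WT, from 7.63 to 10.5 CPM with a median of 9.06 CPM in non-amyloid Hom and from 6.95 to 10.2 CPM with a median of 9.58 CPM in amyloid Hom. In WT mice 7 of 10 amyloid mice lay above every non-amyloid mouse, and in Hom mice none did. S1pr3 rose in WT mice by a log2 fold change of 0.33 ± 0.09 (SE, edgeR adjusted p = 0.0160), the smallest of the 8 rises, and in Hom mice the value was 0.06 ± 0.09 (edgeR adjusted p = 0.752). The S1pr3 rise in WT mice was not called without amyloid WT replicate 5 or replicate 32, nor in a fit of the 20 WT libraries alone, nor without the 9 libraries over 100 CPM of choroid plexus markers.

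Cp, Lcn2 and Fbln5 encode secreted proteins. Cp is ceruloplasmin, a copper-carrying ferroxidase that astrocytes also hold on their surface. It ranged from 16.8 to 28.6 CPM with a median of 22.2 CPM in non-amyloid WT, from 17.03 to 37.6 CPM with a median of 24.7 CPM in amyloid WT, from 17.03 to 27 CPM with a median of 19.3 CPM in non-amyloid Hom and from 20.2 to 33.1 CPM with a median of 25.7 CPM in amyloid Hom. The cohorts overlapped, with 4 amyloid mice above every non-amyloid mouse in each genotype. The log2 fold change was 0.22 ± 0.12 (SE) in WT mice and did not pass the test (edgeR adjusted p = 0.269). In Hom mice Cp rose by 0.36 ± 0.12 (edgeR adjusted p = 0.0485), close to the threshold. Without amyloid Hom replicate 19 the value was 0.34 and was not called (edgeR adjusted p = 0.0911), and over the 40 fits that each left out a library Cp was called in 15. Summed choroid plexus markers moved in the same direction. They ranged from 12.9 to 479 CPM (median 15.5 CPM) in non-amyloid Hom and from 14.5 to 690 CPM (median 28.9 CPM) in amyloid Hom. Of the 8 markers, 0 were at 0 in any group and 0 were called in Hom. The median log2 fold change of the 8 in Hom was 1.04, beside 0.03 over all genes. The mouse highest for Cp ranked 6 in these markers in amyloid Hom (replicate 30) and 9 in amyloid WT (replicate 13). In non-amyloid WT and Hom the highest mouse ranked 1 and 2 (replicates 15 and 4). The part of choroid plexus in the Cp values was not tested. Without the 9 libraries over 100 CPM of these markers the value for Cp was 0.31 (edgeR adjusted p = 0.179).

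Fbln5, fibulin-5 of elastic fibres, had medians of 6.26 CPM in non-amyloid WT, 6.49 CPM in amyloid WT, 6.42 CPM in non-amyloid Hom and 6.46 CPM in amyloid Hom, over ranges of 4.75 to 9.55 CPM. Its log2 fold changes between cohorts were 0.02 ± 0.10 (SE) in WT and 0.18 ± 0.10 in Hom, with 95% intervals of -0.18 to 0.23 and -0.03 to 0.38, and neither was called. Lcn2, lipocalin 2, binds bacterial iron carriers and is also a granule protein of neutrophils. It ranged from 0.00 to 1.22 CPM with a median of 0.103 CPM in non-amyloid WT and from 0.0447 to 6.20 CPM with a median of 0.479 CPM in amyloid WT, where replicate 13 held 485 counts and the other 9 mice held 4 to 70. In Hom mice it ranged from 0.0118 to 0.204 CPM with a median of 0.0566 CPM without amyloid and from 0.00 to 1.28 CPM with a median of 0.0931 CPM with amyloid. The groups overlapped in both genotypes. Lcn2 rose in WT mice with a log2 fold change of 2.29 ± 0.76 (SE, edgeR adjusted p = 0.0479), and in Hom mice the value was 2.33 ± 0.84 (edgeR adjusted p = 0.0807). The WT call depended on single libraries and was made in 16 of 40 fits that each left out a library. Without amyloid WT replicate 13 the value was 1.03 and was not called (edgeR adjusted p = 0.437). Without non-amyloid WT replicate 24, the highest of its group, it was 3.48. With both left out, a fit chosen after seeing the data, the WT value was 2.22 and was called (edgeR adjusted p = 0.0271). The Hom value in that fit was 2.33 and was called as well (edgeR adjusted p = 0.0186). Replicate 24 also had the highest sum of the 7 neutrophil markers of its group, 24.3 CPM beside a group median of 0.398 CPM, and replicate 13 the highest of amyloid WT, 2.20 CPM beside a median of 0.649 CPM. In the Hom groups the mouse highest for Lcn2 was not the highest in these markers. That mouse ranked 3 in non-amyloid Hom (replicate 20, 0.504 CPM) and 4 in amyloid Hom (replicate 40, 0.468 CPM). None of the 7 was at 0 over a whole group, but 6 in non-amyloid Hom, 5 in amyloid WT and 5 in amyloid Hom had means under 0.1 CPM. In choroid plexus markers, amyloid Hom replicate 40 ranked 1 of its group, at 690 CPM. The mouse highest for Lcn2 ranked 10 in non-amyloid WT, 4 in non-amyloid Hom and 9 in amyloid WT. Without the 9 libraries over 100 CPM of choroid plexus markers, Lcn2 was at 2.30 in WT and 1.65 in Hom. Neither value was called (edgeR adjusted p = 0.0608 and 0.316). The part of neutrophil or choroid plexus markers in the Lcn2 values was not tested.

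**Figure D2:**
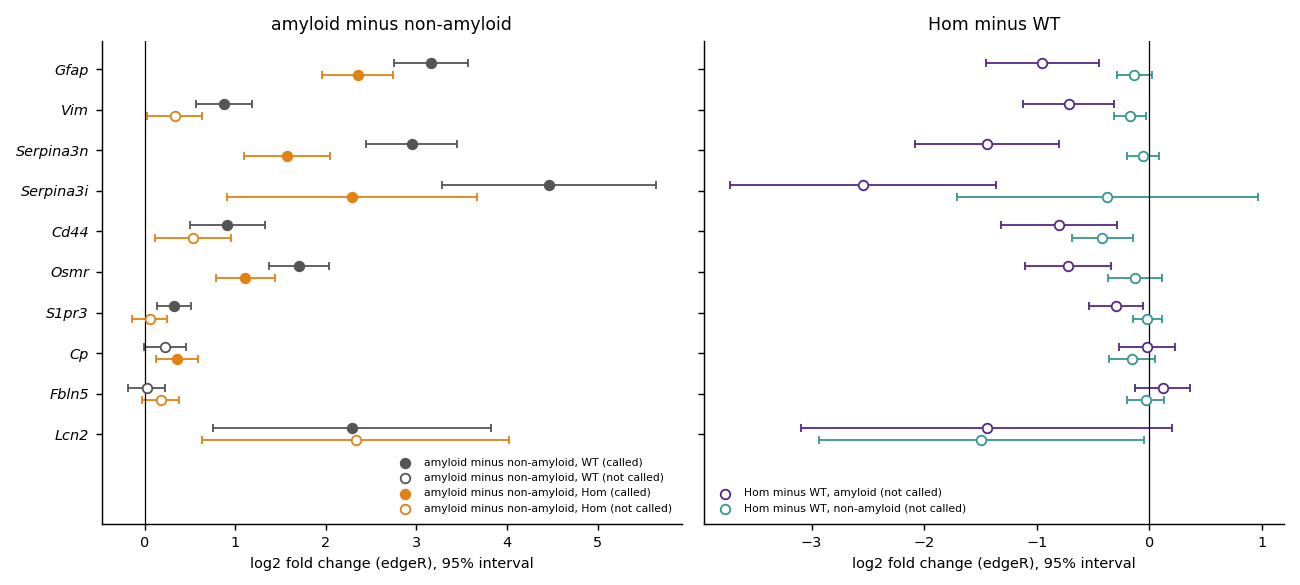
The left panel shows log2 fold changes of amyloid against non-amyloid mice in WT (grey) and Hom (orange), and the right panel those of Hom against WT in the amyloid (purple) and non-amyloid (green) cohorts, with 95% intervals from edgeR and filled circles for called genes. The WT values of 8 members are filled on the left, and no value on the right is filled.

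The second comparison set Hom beside WT mice within the amyloid cohort, which asked whether the Trem2 H157Y allele went with a different level of these genes where amyloid was present. None of the 10 members was called by edgeR's quasi-likelihood test, beside 16 genes or 0.0753% of all genes tested. The estimates of 9 of the 10 members were negative, with a median log2 fold change of -0.76 beside 0.00 over all genes. Of the 10 members, 7 had an unadjusted p under 0.05 with a negative value, beside 5.77% of all genes in that direction and 9.67% in either. The 7 were Serpina3n, Serpina3i, Osmr, Gfap, Vim, Cd44 and S1pr3. The members were chosen with earlier results of these data known, so this share and those of the other comparisons are no independent support. The study, which left out a library, called many more genes in this comparison than the 16 called here, most of them lower in Hom. It lists Gfap, Serpina3i and Serpina3n among those lower in amyloid Hom mice. By staining, it also reported a smaller GFAP-positive area in cortex and hippocampus of Hom mice, and again in another founder line. The groups overlapped for every member.

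Serpina3n had a mean of 107 ± 81.4 CPM in amyloid WT and 39.4 ± 11.7 CPM in amyloid Hom (SD, n = 10 each), and 7 WT mice stood above every Hom mouse. Its log2 fold change was -1.44 ± 0.31 (SE, edgeR adjusted p = 0.0554). Gfap had means of 823 ± 404 and 426 ± 134 CPM, again with 7 WT mice above every Hom mouse and 5 Hom mice below every WT mouse, and a log2 fold change of -0.95 ± 0.24 (edgeR adjusted p = 0.0830). For Serpina3i the means were 0.290 ± 0.273 and 0.0478 ± 0.0393 CPM and the log2 fold change was -2.54 ± 0.57 (edgeR adjusted p = 0.0611). Osmr, at 16.5 ± 7.07 and 10.02 ± 1.82 CPM, had a log2 fold change of -0.72 ± 0.18 (edgeR adjusted p = 0.0821). Vim, at 47.8 ± 22.5 and 29.1 ± 4.59 CPM, gave -0.72 ± 0.19 (edgeR adjusted p = 0.103), and Cd44, at 9.40 ± 5.53 and 5.40 ± 1.24 CPM, gave -0.80 ± 0.25 (edgeR adjusted p = 0.161). In each of these genes the WT mice were the more variable group.

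S1pr3 had a smaller estimate, -0.29 ± 0.12 (SE, edgeR adjusted p = 0.364). Lcn2 gave -1.45 ± 0.80 (edgeR adjusted p = 0.575), and this value was -0.19 without amyloid WT replicate 13. Cp and Fbln5 differed by -0.02 ± 0.12 and 0.12 ± 0.12, with 95% intervals of -0.27 to 0.23 and -0.13 to 0.36, so that genotype differences of more than 0.36 on the log2 scale lay outside both intervals. The estimate for Cp was 0.02 with limma-voom. Without amyloid Hom replicate 19, none of the 10 members was called and the estimates were -1.40 for Serpina3n and -0.97 for Gfap.

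The calls in this comparison, which was fitted on the 20 amyloid libraries without covariates, differed between models. With sex as a covariate, Serpina3n, Gfap, Osmr, Serpina3i and Vim were called lower in Hom (edgeR adjusted p = 0.0081, 0.00904, 0.0129, 0.0154 and 0.0346), beside 1.18% of all genes called, with log2 fold changes of -1.31, -0.90, -0.68, -2.38 and -0.66. DESeq2 called the same 5 members, beside 1.41% of all genes. In 1 fit of all 40 libraries, where the low spread of the non-amyloid mice entered the estimate, Cd44 was called as well, beside 2.88% of all genes. Leaving out amyloid WT replicate 13, a male with the lowest Gfap of its group, gave calls for Gfap, Serpina3n and Serpina3i (edgeR adjusted p = 0.035, 0.0234 and 0.0322). Over the 20 fits that each left out a library, Serpina3n and Serpina3i were called in 4, Gfap in 1 and Osmr in 1.

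Microglial markers moved with these genes. All 12 had negative estimates in Hom against WT amyloid mice and 11 of the 12 had an unadjusted p under 0.05, none of them called, and their sum was 1200 ± 295 CPM in amyloid WT (775 to 1726 CPM) and 809 ± 158 CPM in amyloid Hom (615 to 1069 CPM), beside 470 ± 47.0 and 464.5 ± 23.5 CPM in non-amyloid WT and Hom (SD, n = 10 each). No marker was at 0. Several members, among them Vim and Cd44, are also made by microglia or other myeloid cells, and the part of those cells in the values was not tested. The 12 homeostatic astrocyte markers were at a median of -0.09 on the log2 scale in the same comparison, with 0 called and 1 at an unadjusted p under 0.05.

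In the non-amyloid cohort none of the 10 members was called, beside 7 genes or 0.0329% of all genes tested. All 10 estimates were negative, with a median of -0.14 beside 0.00 over all genes, and 3 had an unadjusted p under 0.05, beside 4.61% of all genes. Cd44, at 4.995 ± 1.56 CPM in WT and 3.72 ± 0.436 CPM in Hom (SD, n = 10 each), had a log2 fold change of -0.42 ± 0.13 (SE, edgeR adjusted p = 0.965), and 6 WT mice lay above every Hom mouse. Vim, at 26.1 ± 2.11 and 23.1 ± 2.74 CPM, gave -0.17 ± 0.07, and Lcn2, at 0.199 ± 0.365 and 0.0696 ± 0.0626 CPM, gave -1.49 ± 0.70, which was -0.31 without non-amyloid WT replicate 24. Gfap and Serpina3n gave -0.13 ± 0.08 and -0.06 ± 0.07, with 95% intervals of -0.29 to 0.02 and -0.20 to 0.08.

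The difference between the genotype effects of the cohorts was tested as an interaction over all 40 libraries. No member and no other gene was called by edgeR's quasi-likelihood test, beside 2189 genes or 10.3% at an unadjusted p under 0.05 and 27 genes called by DESeq2, or 0.127%, of which 1 was a member, Serpina3n. Of the 10 members, 5 had an unadjusted p under 0.05 with a negative value, beside 5.54% of all genes. For Serpina3n the interaction was -1.38 ± 0.33 (SE, edgeR adjusted p = 0.111, DESeq2 adjusted p = 0.0491). Gfap followed with -0.81 ± 0.26 (edgeR adjusted p = 0.235), Osmr with -0.59 ± 0.23 (edgeR adjusted p = 0.368) and Vim with -0.54 ± 0.21 (edgeR adjusted p = 0.382). For Cd44 the interaction was -0.38 ± 0.29 (edgeR adjusted p = 0.611), and for Lcn2 it was 0.04 ± 0.82, with an interval of -1.61 to 1.70 that leaves its direction unsettled. With a library left out, edgeR called 0 or 1 members, and the 1 was Serpina3n without amyloid WT replicate 13 (edgeR adjusted p = 0.0437).

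Females and males of the amyloid cohort were compared next. In amyloid WT, Gfap was at 1099 ± 380 CPM in the 5 females and 546 ± 176 CPM in the 5 males, and Serpina3n at 154 ± 93.8 and 59.6 ± 22.6 CPM (SD). No member was called by edgeR for female against male amyloid WT mice, beside 11 genes or 0.0518% of all genes tested, while DESeq2 called Cd44, Vim, Gfap, Osmr and Serpina3n higher in females (adjusted p = 0.00101, 0.0081, 0.0117, 0.0138 and 0.0334), beside 0.466% of all genes. Cd44 ranged from 7.99 to 22.1 CPM in females and from 4.14 to 7.10 CPM in males, with no overlap, which 0.593% of all genes tested also showed in this direction. Its log2 fold change was 1.19 ± 0.24 (SE, edgeR adjusted p = 0.0772). The values were 1.37 ± 0.32 for Serpina3n, 1.01 ± 0.24 for Gfap, 0.89 ± 0.20 for Vim and 0.80 ± 0.19 for Osmr (edgeR adjusted p = 0.159, 0.171, 0.158 and 0.159). Microglial markers moved the same way, with 0 of 12 estimates below 0 in WT and 0 of 12 in Hom, none of them called. The median log2 fold change of the 12 was 0.447 in WT and 0.398 in Hom, beside 0.015 and 0.004 over all genes. The sum of these markers was 1400 ± 258 CPM in WT females (1050 to 1726 CPM) and 999 ± 170 CPM in WT males (775 to 1227 CPM), and 911 ± 149 and 708 ± 90.9 CPM in Hom females and males (SD, n = 5 each). Red cell markers moved the other way in WT, with 4 of 4 estimates below 0 and a median of -1.56, none of them called. In Hom 0 of the 4 were below 0. Their sums in WT were 3.21 to 8.93 CPM in females and 5.67 to 26.96 CPM in males. The part of microglial or red cell markers in the sex differences was not tested.

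**Figure D3:**
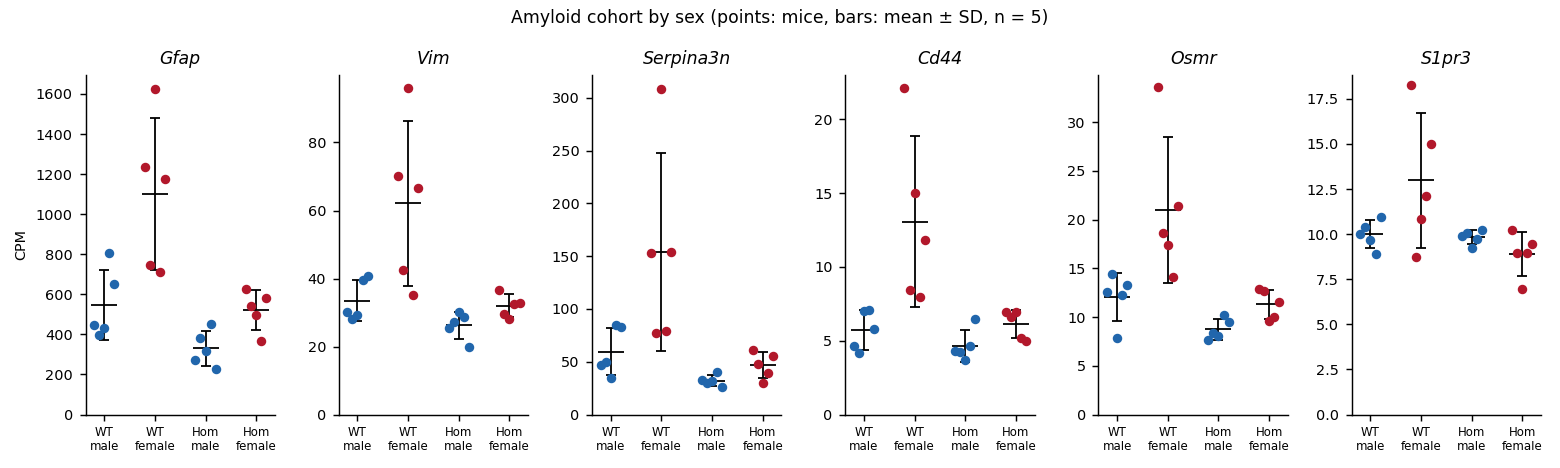
CPM on the vertical axis, starting at 0, for 6 members in amyloid mice split by genotype and sex; points are mice (blue male, red female) and bars are the mean ± SD of 5 mice. The 5 amyloid WT females stood above all 5 amyloid WT males for Cd44, and the sexes overlapped for the other 5 genes.

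In amyloid Hom the distance between the sexes was 0.66 ± 0.24 on the log2 scale for Gfap, 0.54 ± 0.31 for Serpina3n, 0.39 ± 0.24 for Cd44, 0.37 ± 0.19 for Osmr and 0.28 ± 0.20 for Vim (SE), and none of the 10 members was called, beside 12 genes or 0.0565% of all genes tested. The test of genotype by sex called 0 genes with edgeR and 0 with DESeq2, with 1124 genes or 5.29% at an unadjusted p under 0.05. The estimates with the lowest unadjusted p among the members were those of S1pr3, -0.52 ± 0.21, Cd44, -0.80 ± 0.33, and Vim, -0.61 ± 0.28 (edgeR adjusted p = 0.817 each). S1pr3 was at 12.99 ± 3.73 CPM in WT females and 8.90 ± 1.21 CPM in Hom females, and at 9.99 ± 0.778 and 9.84 ± 0.383 CPM in WT and Hom males. The lowest Hom female for S1pr3, at 6.95 CPM, was replicate 19, the library that stood apart on strand.

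**Figure D4:**
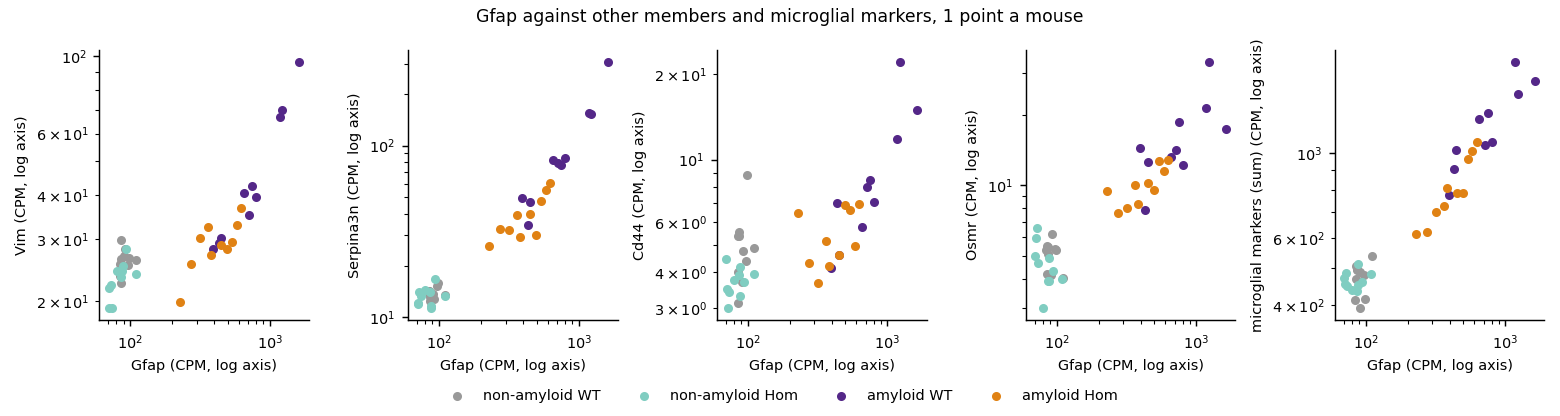
Gfap in CPM (horizontal log axis) against Vim, Serpina3n, Cd44, Osmr and the sum of 12 microglial markers in CPM (vertical log axes), with 1 point for each mouse coloured by group. Within amyloid WT the points for Vim and Serpina3n follow Gfap with r = 0.97, while the non-amyloid mice form a compact cloud at low Gfap.

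Gfap was set beside the other members within each group, mouse by mouse. Pearson's r of log2 CPM was taken between Gfap and each other member and the summed microglial markers in each group of 10 mice, 40 relations in all, with permutation tests of 100000 resamples, two-sided, adjusted over the 40. For r, an adjusted p under 0.05 was reached by 4 of the 9 other members in amyloid WT, 3 of 9 in amyloid Hom and none in the non-amyloid groups. The p-values below are those of r unless rho is named. In amyloid WT, Gfap followed Vim (r = 0.97, Spearman's rho = 0.94, permutation p = 5e-05, adjusted p = 0.001), Serpina3n (r = 0.97, rho = 0.90, permutation p = 5e-05, adjusted p = 0.001) and Cd44 (r = 0.88, rho = 0.92, permutation p = 0.00062, adjusted p = 0.00496). Without the 2 mice farthest from the median of Gfap, r was 0.95, 0.98 and 0.84. Serpina3i followed with r = 0.80 (rho = 0.75, permutation p = 0.00623, adjusted p = 0.0312), and Osmr with r = 0.70 (rho = 0.60, permutation p = 0.0227, adjusted p = 0.0908). The permutation test of rho gave adjusted p = 0.0044 for Vim, 0.0064 for Serpina3n and 0.0064 for Cd44. Serpina3i did not pass by rho (permutation test, adjusted p = 0.0750). Values for S1pr3, Cp, Fbln5 and Lcn2 were 0.51, -0.06, -0.17 and -0.11. Each sex held 5 mice of a group, too few for a value within a sex. With the mean of each sex removed, r was 0.94 for Vim, 0.94 for Serpina3n, 0.72 for Cd44, 0.56 for Serpina3i and 0.32 for Osmr.

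In amyloid Hom, Gfap followed Serpina3n (r = 0.81, rho = 0.76, permutation p = 0.00576, adjusted p = 0.0312), Vim (r = 0.78, rho = 0.70, permutation p = 0.00499, adjusted p = 0.0312) and Osmr (r = 0.77, rho = 0.84, permutation p = 0.0103, adjusted p = 0.0456). By the permutation test of rho only Osmr passed (adjusted p = 0.0244), while Serpina3n and Vim did not (adjusted p = 0.0750 and 0.111). The relation to Vim was weaker without the 2 mice farthest from the median of Gfap, at r = 0.44, and those to Serpina3n and Osmr were 0.77 and 0.88. With the means of the sexes removed, r was 0.64 for Serpina3n, 0.61 for Vim and 0.50 for Osmr. The other 6 members did not pass, with r of 0.38 for Cd44, 0.28 for Serpina3i, -0.28 for S1pr3, -0.44 for Cp, -0.48 for Lcn2 and -0.63 for Fbln5. The relation to the summed microglial markers was r = 0.90 in amyloid WT (rho = 0.90, permutation p = 0.00051, adjusted p = 0.00496) and r = 0.95 in amyloid Hom (rho = 0.95, permutation p = 1e-04, adjusted p = 0.00133), and 0.78 and 0.90 with the means of the sexes removed. In the non-amyloid groups none of the 20 relations had an adjusted p under 0.05, and Gfap varied by only 9.26% of its mean in WT and 15.0% in Hom, beside 49.0% in amyloid WT and 31.5% in amyloid Hom.

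As a description over the 20 amyloid mice, with group means removed and no test, each member was set beside the mean of the 10 standardized members, a mean that includes the member itself. The correlation was 0.89 for Serpina3n, 0.88 for Vim, 0.84 for Osmr, 0.80 for Serpina3i, 0.74 for Gfap, 0.72 for Cd44 and 0.62 for S1pr3, and 0.20 for Cp, 0.19 for Lcn2 and 0.08 for Fbln5. Outside the set, the 5 genes with at least 1 CPM most like this mean were S100a6 (r = 0.91), Rhoj (0.90), Msn (0.88), Csf2rb (0.87) and Inpp5d (0.86). The means of the sexes were not removed here, and the 5 were picked from these same amyloid mice, so their changes are no independent support. All 5 rose in amyloid WT mice, beside 6.62% of all genes called higher. S100a6 went from 9.93 ± 1.65 to 17.8 ± 7.13 CPM (SD, n = 10 each). Msn, which links CD44 to the actin cortex as moesin, went from 32.04 ± 2.21 to 60.8 ± 13.4 CPM. In amyloid Hom S100a6 was at 12.4 ± 2.25 CPM and Msn at 44.3 ± 4.86 CPM, and neither was called for genotype (edgeR adjusted p = 0.243 and 0.0654). Csf2rb, Inpp5d and Rhoj had genotype log2 fold changes of -0.80, -0.49 and -0.39 and were not called either (edgeR adjusted p = 0.0554, 0.0554 and 0.358).

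Other genes tied to astrocyte reactivity were grouped by the stimulus known to induce them. Their counts in WT and Hom come from the fit of all 40 libraries, beside 6.62% and 5.71% of all genes called higher. For the members the order of such counts depended on the fit. For these lists that was not examined, and the main test of the interaction called 0 genes. Among 5 further genes induced in most kinds of reactive astrocytes, 4 rose in amyloid WT and 3 in amyloid Hom: Cxcl10, a chemokine (log2 fold changes 3.19 and 2.62), Aspg, an asparaginase (1.49 and 0.81), and Steap4, a metalloreductase (0.86 and 0.78) in both genotypes, and Timp1, an inhibitor of matrix proteases, in WT (2.14, beside 0.73 in Hom). The median log2 fold change of the 5 was 1.49 in WT and 0.78 in Hom. For genotype in amyloid mice 0 of the 5 were called and the median was -0.90. Of 11 genes induced in astrocytes by lipopolysaccharide, 9 rose in WT and 4 in Hom, led by Ggta1, Srgn and Psmb8, which rose in both (1.42 and 1.02, 0.95 and 0.55, 1.59 and 0.87), and H2-D1, which rose in WT (1.202, beside 0.47 in Hom). Their medians were 1.15 and 0.47. Of the 12 genes induced by ischemia 11 were tested, 6 rose in WT and 1 in Hom, which was Cd14, a co-receptor for lipopolysaccharide found mostly on myeloid cells (2.11 and 1.58), and the medians were 0.36 and 0.27. No gene of these lists was called between Hom and WT amyloid mice, where 8 of the 11 and 5 of the 11 had an unadjusted p under 0.05 with a negative value. Over all genes that share was 5.77%.

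Partners of the members in their own pathways were counted in the same way, from the same fit and with the same limit. Of 19 genes of gp130 and STAT3 signalling, 6 rose in amyloid WT and 3 in amyloid Hom, and none fell. Osm, the ligand of the oncostatin M receptor, rose from 0.0909 CPM on average to 0.497 CPM in WT (log2 fold change 2.43, edgeR adjusted p = 1.61e-07) and by 1.67 in Hom. Lif, another ligand of the family, rose in WT by 1.89, and the Hom value was 0.30. Stat3 rose from 48.6 to 71.3 CPM in WT by 0.55, with 0.22 in Hom, below the fold-change threshold, and Il6ra rose in WT by 0.74. The median of the 19 was 0.15 in WT and 0.06 in Hom, beside 0.00 and 0.03 over all genes. For genotype in amyloid mice 0 of the 19 were called.

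For CD44, 2 of 8 ligands and partners rose in both genotypes, Spp1, which encodes the ligand osteopontin (log2 fold changes 1.77 in WT and 0.82 in Hom), and Msn (0.92 and 0.54), and Has1, a hyaluronan synthase, fell by 0.50 in WT. Spp1 was at 56.5 CPM in amyloid WT and 22.6 CPM in amyloid Hom, a log2 fold change of -1.32 ± 0.26 (SE, edgeR adjusted p = 0.0525) that was not called. Among 8 genes for receptors and metabolism of sphingosine 1-phosphate, Sgpl1, the lyase, and S1pr2 rose in WT by 0.42 and 0.40, and none of the 8 was called in Hom. Of 8 tested genes of iron handling, the process that ceruloplasmin serves, Hmox1 (1.05) and Fth1 (0.35) rose in WT and 1 of the 8, Hmox1, in Hom. Of 11 genes of elastic fibres, the setting of fibulin-5, Lox (2.44) and Efemp1 (0.30) rose in WT, and Lox (1.90) in Hom. No gene of these 4 lists was called between Hom and WT amyloid mice.

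**Figure D5:**
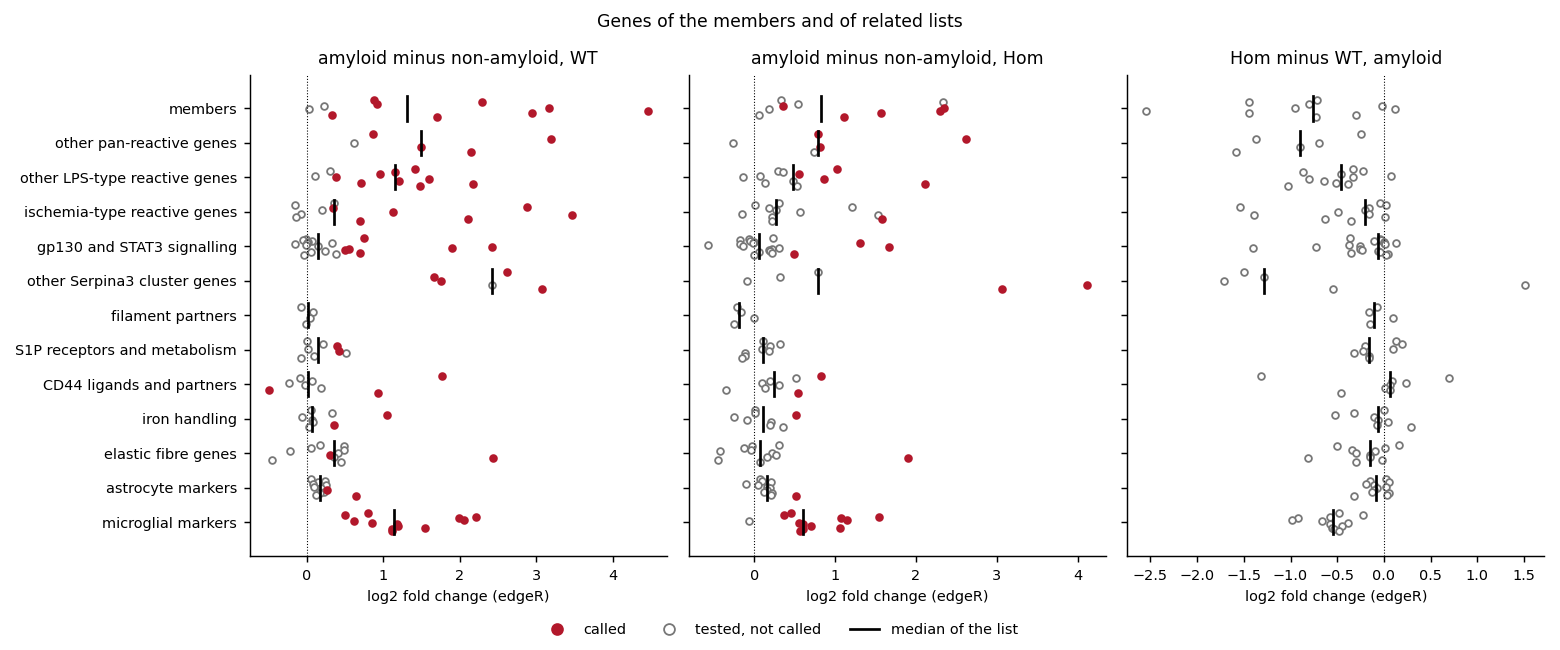
Log2 fold changes from edgeR of each tested gene (points, red when called) in the members, 10 related lists and 2 marker lists, with the median of each list as a black bar, for amyloid against non-amyloid in WT and in Hom and for Hom against WT in the amyloid cohort. The medians of the members were 1.31, 0.82 and -0.76, and no gene shown was called in the right panel.

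Of the 12 homeostatic astrocyte markers, 2 rose in amyloid WT, Aqp4 from 144 to 223 CPM (log2 fold change 0.64) and Aldoc by 0.26, and only Aqp4 rose in Hom, by 0.52. The median log2 fold change of the 12 was 0.18 in WT and 0.16 in Hom, beside 0.00 and 0.03 over all genes. Of the 12 estimates, 0 in WT and 1 in Hom were below 0. All 12 microglial markers rose in amyloid WT mice and 11 of 12 in amyloid Hom mice, with medians of 1.14 and 0.60, among them Cx3cr1, Csf1r and Fcrls with log2 fold changes of 1.19, 1.11 and 2.21 in WT. Of 4 tested neutrophil markers Ngp fell in WT by 3.01, and its mean of 0.497 CPM in non-amyloid WT came with the single library, replicate 24, that had the highest neutrophil sum. Of 6 endothelial markers 1 was called in WT, Cldn5, higher by 0.47. Of 8 meningeal fibroblast markers 1 was called, Slc6a13, higher by 0.51. Of 5 mural markers 1 was called, Myh11 of smooth muscle, lower by 0.44. The lists were mixed, with 2 of the 6, 3 of the 8 and 3 of the 5 estimates below 0. Their medians were 0.095, 0.042 and -0.047. No marker of neurons, oligodendrocytes, ependyma, choroid plexus or red cells was called in WT, where the genes with the lowest p were Gad1 (-0.16, under the fold-change threshold), Mag (0.06), Tmem212 (-0.18), Clic6 (0.10) and Hba-a2 (0.51).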

How the data were processed

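Cortical RNA of 40 mice was sequenced from poly-A libraries on a NovaSeq instrument with paired 100-base reads. The authors deposited 1 table of raw read counts per gene, not normalized, with 1 column for each mouse. The study's methods name MAP-RSeq with TopHat, Bowtie and featureCounts, while the submitters' processing notes list STAR 2.5.2b, featureCounts 1.5.1, edgeR and the build mm10, and which of these made the table was not given in the sources used here. An amyloid Hom female was dropped by the study, for a low percentage of gene counts and its strand check, without being named. Amyloid Hom replicate 19 is a female with the lowest total count and the raised share of counts on opposite-strand genes. The labels do not name it as the dropped library. Here no library was dropped from the main fits.

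The members and the gene lists were chosen with earlier results of these data known. Groups came from the labels. The low-count filter asked for 10 counts or more in 4 libraries or more and passed 21253 of 43346 genes. No library had a count for 9666 genes. Counts were scaled by TMM and tested with edgeR's quasi-likelihood test (edgeR 4.0.16, R 4.3.3) and Benjamini-Hochberg adjustment over all genes tested, and calls needed an adjusted p under 0.05 together with a log2 fold change beyond 0.25 in size. Genotype was fitted within each cohort, cohort and the interaction over all 40 libraries, and sex over the 20 amyloid libraries. No covariate entered the genotype and cohort fits. The procedure was tested on simulated data. No 2 libraries of a group agreed within sampling noise (the lowest chi-square per degree of freedom over 180 pairs was 13.6). Each mouse is a separate sample, so p-values weigh a difference against the spread between mice. In the cohort and interaction fits that spread was estimated over all 4 groups together, which differed in spread.

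Besides the members and Trem2, the genes named were, in each list, at most 4 with the lowest p among those called for amyloid in WT or for genotype in amyloid mice, or else the gene with the lowest p, and the 5 genes of at least 1 CPM most like the members' mean over the 20 amyloid mice. A gene that this rule names is not reported here. Alternatives were DESeq2 1.42.0, limma-voom with sample weights (limma 3.58.1), other scalings and filters, no fold-change threshold, sex as a covariate, other sets of libraries in the fit, a robust fit of the interaction, and each library left out in turn. Exclusion of 9 libraries rich in choroid plexus markers, and of amyloid WT replicate 13 with non-amyloid WT replicate 24, was chosen after seeing the data. Correlations and figures were made with Python 3.11.15, SciPy 1.17.1, NumPy 2.4.6, pandas 2.3.3 and matplotlib 3.10.9.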

Additional observations from a re-analysis of the deposited data

Results flagged for a closer look

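In each of the 40 combinations of member and group the highest and the lowest mouse were compared with their neighbours by Dixon's ratio, the gap to the nearest mouse over the group's range, at its 95% critical value of 0.466 for 10 samples. Chance passes about 1 in 20 groups. The value was passed 8 times, by 7 mice. Among non-amyloid WT mice, replicate 1 was high for Gfap, at 111.3 CPM beside 98.9 CPM in the next mouse (ratio 0.467), and for Serpina3i, at 0.0375 CPM, which was 3 counts. Replicate 7 was high for Cd44, at 8.84 CPM beside 5.53 CPM. Replicate 24 was high for Lcn2, at 1.22 CPM beside 0.167 CPM, with 96 counts. Among amyloid WT mice, replicate 12 was high for Serpina3n, at 307.9 CPM beside 154.3 CPM, replicate 5 for Osmr, at 33.6 CPM beside 21.4 CPM, and replicate 13 for Lcn2, at 6.20 CPM beside 0.757 CPM, with 485 counts. In amyloid Hom, replicate 19 was low for S1pr3, at 6.95 CPM beside 8.95 CPM, and this is the library with the raised share of counts on opposite-strand genes.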

How the results depend on the processing

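No paired analysis was made. Replicate numbers run over all 40 libraries and so cannot show pairs, and the labels used here give no litter. Litter therefore entered no fit. For Hom against WT in the amyloid cohort, 16 genes and 0 members were called. DESeq2 called 300 genes and 5 members, filterByExpr gave 66 and 1, limma-voom 25 genes, no filter on low counts 9 genes, a single fit of the 40 libraries 612 and 6, sex as a covariate 251 and 5, and that covariate without amyloid Hom replicate 19 gave 200 and 4. Excluding the 9 libraries with choroid plexus markers gave 5 genes and 0 members, and excluding amyloid WT replicate 13 with non-amyloid WT replicate 24 gave 204 and 3, both chosen after seeing the data. With each library left out the counts were 6 (without amyloid Hom replicate 39) to 204 genes (without amyloid WT replicate 13) and 0 to 3 members. Among non-amyloid mice genotype gave 7 genes, 11 with DESeq2 and 4 to 8 with a library left out. The interaction called 0 genes, beside 27 with DESeq2 including 1 member, 12 with sex as a covariate, 6 when replicate 19 was also left out, 18 without replicates 13 and 24, and 0 to 22 genes and 0 to 1 members with a library left out, the highest without amyloid WT replicate 13. For amyloid against non-amyloid in WT, 8 members were called, 6 in a fit of the 20 WT libraries, 6 without the choroid plexus libraries and 6 to 8 with a library left out. In Hom, 5 members were called, 8 in a fit of the 20 Hom libraries, 3 with filterByExpr, 3 without the choroid plexus libraries and 3 to 6 with a library left out. For female against male amyloid WT mice, DESeq2 called 99 genes and 5 members, and leaving out libraries gave 11 to 34 genes and 0 to 4 members. In Hom, DESeq2 called 25 genes, and genotype by sex called 0 to 1 genes with a library left out. Values near 0 changed sign. Cp for genotype in amyloid mice was 0.0197 with limma-voom, 0.0489 without replicates 13 and 24, and -0.0719 to 0.0489 with a library left out. Fbln5 for amyloid in WT was -0.00236 with limma-voom, -0.00343 without the choroid plexus libraries, -0.0057 without replicates 13 and 24, and -0.0279 to 0.0641 with a library left out. The Lcn2 interaction was -0.342 with limma-voom, -0.643 without the choroid plexus libraries, and -1.14 (without non-amyloid WT replicate 24) to 1.30 (without amyloid WT replicate 13). For genotype in non-amyloid mice Fbln5 was 0.0195 without the choroid plexus libraries and -0.0623 to 0.00767 with a library left out, and S1pr3 was -0.0478 to 0.00451. Between the sexes Cp was -0.0148 with DESeq2 in WT, and with a library left out it was -0.132 to 0.166 in WT and -0.106 to 0.0742 in Hom, while Lcn2 in WT was -2.28 to 0.000265. For genotype by sex the ranges were -0.183 to 0.105 for Cp, -0.141 to 0.122 for Fbln5 and -1.42 to 1.12 for Lcn2. The cause of these changes was not tested. The relations to Gfap on linear CPM kept their sign in all 40 cases, and r moved by at most 0.0679 among the 9 with an adjusted p under 0.05. Depth limits Serpina3i and Lcn2, which had libraries with no count.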

Other observations

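The same few mice stood at the ends of the range for several members. In amyloid WT, replicate 12 was the highest for Gfap, Vim and Serpina3n, and replicate 5 for Serpina3i, Cd44, Osmr and S1pr3, both females. Replicate 13, a male, was the lowest for Gfap, Vim and Cd44 and the highest for Cp and Lcn2. In amyloid Hom, replicate 3 was the highest for Gfap, Vim, Serpina3n, Serpina3i, Cd44 and Osmr, and replicate 40 was the lowest for Gfap, Vim and Serpina3n, held no count of Serpina3i, and was the highest for S1pr3 and Lcn2. Trem2 was also lowest in replicate 13 of amyloid WT, at 30.3 CPM, and in replicate 40 of amyloid Hom, at 17.3 CPM.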
